A study of Oryza sativa with 3 samples.

Results

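The basic leucine zipper (bZIP) transcription factors of rice (Oryza sativa) were followed across 3 tissues, as the genes with a single identifier whose deposited description contains the word bZIP. The rule found 56 genes, all of them in the leaf blade table, 53 in the node table and 54 in the stem table. The 53 genes present in all 3 tables, out of 51597 such genes in all, are described here, and the other 3 were merged with neighbouring genes in the node, in the stem or in both. Of the 56 descriptions, 40 read bZIP transcription factor domain containing protein, and the most members on 1 chromosome were the 9 on chromosome 6. The libraries were 1 of leaf blade, 1 of nodes I and II (the stem joints where leaves attach) and 1 of stem, each made from total RNA of rice grown at 29 °C in days with 12 h of light. No genotype, cultivar, age or treatment is stated in the labels, and nothing there says how many plants went into a library.

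A bZIP factor holds a basic region that contacts DNA and a zipper of leucines through which it pairs with another bZIP protein, so these factors act as dimers. In plants, one class carries the response to the hormone abscisic acid, which acts in drought and seed maturation. Others serve the florigen complex of flowering, the response to light, seed storage protein synthesis, the unfolded protein response of the endoplasmic reticulum, zinc supply and defence.

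Levels are given as FPKM, in which fragments are divided by transcript length and by the mapped fragments of the library. FPKM can be compared between tissues only as far as the libraries are alike in composition and in the transcript lengths used. The interval deposited with each value is given in brackets, and was read as counting error only. The number of fragments behind each value was computed from that interval, so it is an implied number and not a count. It comes out too low where an interval is wider than counting error. The sum came to 39880000 in the leaf blade, 39960000 in the node and 43160000 in the stem. With 1 library per tissue, differences have neither a replicate check nor a p-value. A member was counted as higher or lower when (FPKM + 1) differed by 4-fold or more, a log2 difference of 2, and this scale understates differences at low levels. In tissue samples, fewer cells of a type and less RNA per cell cannot be told apart. Most tissue markers looked up followed the labels. The leaf enzyme gene GLO1 had 423 FPKM in the leaf blade against 9.48 in the node and 34.9 in the stem. The node silicon transporter LSI2 had 110.5 FPKM in the node against 0.323 in the leaf blade and 4.40 in the stem. The antenna gene CAB2R was an exception, at 2741 FPKM in the stem and 1999 in the leaf blade. So was OSH1, looked up as a stem and meristem marker, at 131 FPKM in the node and 19.6 in the stem.

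Most bZIP genes were expressed, and the node expressed the most of them. Of the 53 members, 45 reached 1 FPKM in at least 1 tissue (84.9%), against 38.9% of all 51597 genes, and 29 did so in all 3 tissues (54.7%, against 27.5%). The node held 43 members at 1 FPKM or more (81.1%, against 35.0% of all genes), the stem 34 (64.2%, against 31.8%) and the leaf blade 31 (58.5%, against 32.1%). The median member stood at 8.84 FPKM in the node, 7.21 in the stem and 2.10 in the leaf blade. Of the 53, LOC_Os06g42140 alone was listed at 0 in all 3 libraries, as were 36.3% of all genes, and the other 7 members that were not compared stayed under 1 FPKM everywhere. Every member description ends in the word expressed, and the set of all genes was not restricted to such descriptions. The part of this in the higher shares of members was not tested.

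Summed over the 53 members, the levels came to 551 FPKM in the leaf blade, 1043 in the node and 1087 in the stem. The stem sum leaned on 1 gene, LOC_Os08g26880, which held 35.6% of it. Without that gene the sums were 542 FPKM in the leaf blade, 990.5 in the node and 699.8 in the stem. The node sum was spread more widely, and its most abundant member, RISBZ4, held 12.2%.

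**Figure D1:**
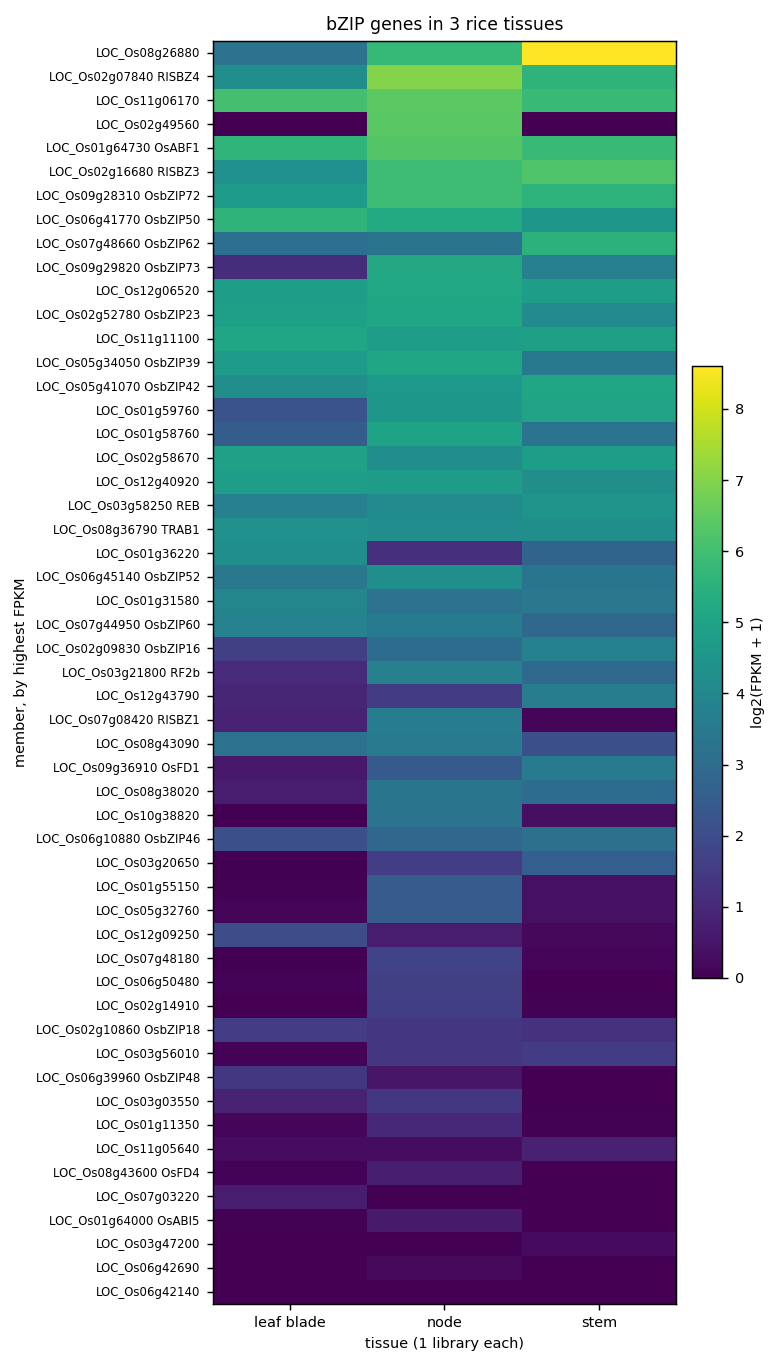
Level of each of the 53 bZIP genes in the leaf blade, node and stem, as log2(FPKM + 1) in colour, with 1 library per tissue and genes ordered by their highest FPKM. The brightest cell is LOC_Os08g26880 in the stem, at 387 FPKM, and LOC_Os02g49560 is bright in the node alone, at 84.1 FPKM.

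Compared with leaf blade, more members were higher in the node and in the stem than were lower. In node versus leaf blade, 12 of the 45 members compared were higher by 4-fold or more (26.7%) and 1 was lower (2.22%). The shares over all 20097 genes tested this way were 12.3% and 7.29%. In stem versus leaf blade, 9 members were higher (20.0%, against 6.43% of all genes) and 0 were lower (against 6.52%). In node versus stem, 5 members were higher (11.1%, against 6.82%) and 3 were lower (6.67%, against 2.30%).

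The medians lay on the same side. The median log2 difference of the 45 members was 0.74 for node versus leaf blade, against 0.13 over all genes compared. It was 0.17 for stem versus leaf blade, against -0.02, and 0.48 for node versus stem, against 0.16. The first and second comparisons share the leaf blade library, so they are not independent. Of the 45 members, 27 were within 4-fold in every comparison (60.0%). The matching share over all genes is not given, so this count does not say whether members were more even than other genes.

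**Figure D2:**
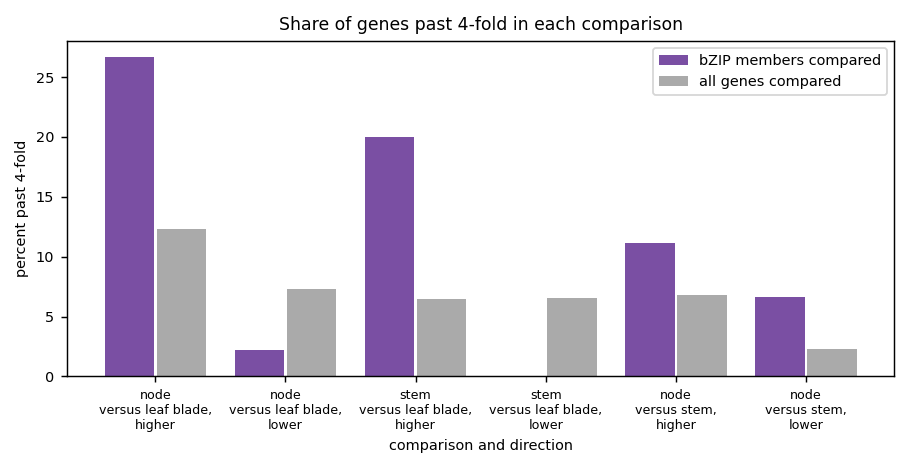
Percent of the 45 bZIP genes compared (purple) and of all 20097 genes compared (grey) that differed by 4-fold or more, by comparison and direction, with 1 library per tissue. The purple bar is the taller for higher in the node than leaf blade, at 26.7% against 12.3%, and there is no purple bar for lower in the stem than leaf blade.

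Members that stood 4-fold or more above both other tissues numbered 5 in the node (11.1%, against 5.26% of all genes compared), 3 in the stem (6.67%, against 0.921%) and 0 in the leaf blade (against 4.56%). The clearest case in the stem was LOC_Os08g26880 (chromosome 8, 16372070 to 16374387), described only as a bZIP domain protein. It had 8.72 FPKM in the leaf blade (7.85 to 9.59), 52.6 in the node (50.6 to 54.6) and 387 in the stem (381 to 392). The level stepped up from leaf blade to node to stem with no overlap of intervals, by log2 differences of 2.46 for node versus leaf blade and 5.32 for stem versus leaf blade. These values rest on 402, 2660 and 20173 fragments, and it was the most abundant bZIP gene of the stem library.

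OsbZIP62 (LOC_Os07g48660, chromosome 7, 29144895 to 29147038), a factor of abscisic acid and drought response, had 7.83 FPKM in the leaf blade, 8.84 in the node and 45.0 in the stem (43.1 to 46.8). Leaf blade and node were alike within overlapping intervals, and stem was higher by log2 differences of 2.38 over leaf blade and 2.22 over node. The third stem member, LOC_Os12g43790 (chromosome 12, 27197031 to 27197849), had 0.90 FPKM in the leaf blade, 1.79 in the node and 11.4 in the stem. Its leaf blade and node values rest on 26 and 48 fragments, and their intervals do not overlap the stem interval of 10.2 to 12.7.

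Of the node members, RISBZ1 (LOC_Os07g08420, chromosome 7, 4322231 to 4326708) is the best known, as an activator of storage protein genes in the rice endosperm. It had 0.761 FPKM in the leaf blade (0.422 to 1.10), 11.3 in the node (10.1 to 12.5) and 0.121 in the stem (0.0444 to 0.197). The node stood alone, with log2 differences of 2.80 over leaf blade and 3.45 over stem, from 358 fragments against 20.1 and 10. By fragments its node versus stem difference was 3.01, since 1 FPKM stood for 82.7 fragments in the stem and 31.8 in the node.

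LOC_Os10g38820 (chromosome 10, 20660761 to 20663311) was listed at 0 in the leaf blade and had 8.79 FPKM in the node (8.03 to 9.55) and 0.266 in the stem. LOC_Os01g55150 (chromosome 1, 31728015 to 31730389) had 0.0441 FPKM in the leaf blade, 4.69 in the node (4.03 to 5.36) and 0.293 in the stem. LOC_Os05g32760 (chromosome 5, 19178366 to 19183739), described as a BZIP protein, had 0.103 FPKM in the leaf blade, 4.64 in the node (4.01 to 5.27) and 0.307 in the stem. In all 3 of these genes the node stood above the other tissues, which were under 1 FPKM, though below the node median of 8.84 FPKM over members. For LOC_Os05g32760 the fragments behind 1 FPKM were 46.6 in the node against 118 and 137 in the others, and by fragments its node versus stem difference was 1.70 on the log2 scale, under 4-fold.

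LOC_Os02g49560 had the largest node difference, and also the least certain. It had 84.1 FPKM in the node (78.5 to 89.7), from 905 fragments, and was listed at 0 in the leaf blade and stem, so no fold is given. Its locus spanned 2720 bases in the node table and 510 in the others (chromosome 2, 30295609 to 30296118 in the leaf blade). In node it overlapped a merged row of other genes at 7.09 FPKM, and in the stem at 5.45 FPKM. The part of the longer locus in this value was not tested.

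**Figure D3:**
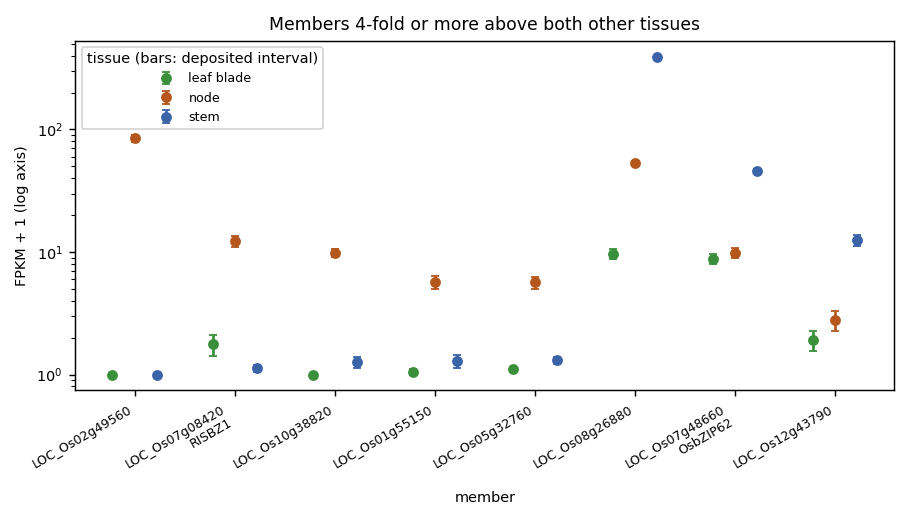
Levels of the 8 bZIP genes that stood 4-fold or more above both other tissues, as FPKM + 1 on a log axis, in the leaf blade (green), node (orange) and stem (blue), 1 library each, with bars for the deposited interval. The first 5 genes are highest in the node, between 4.64 and 84.1 FPKM, and the last 3 are highest in the stem, between 11.4 and 387 FPKM.

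Most factors of abscisic acid response stood within 4-fold between tissues in FPKM, with OsbZIP62 the exception among those compared. These proteins bind abscisic acid response elements, and kinases of the SAPK family phosphorylate them. Of the 8 members with this role, 7 were compared. None was past 4-fold for node versus leaf blade, and OsbZIP62 alone was so in the comparisons with stem. The medians of the 7 were 0.32 for node versus leaf blade, 0.79 for stem versus leaf blade and -0.07 for node versus stem. OsbZIP62 and OsbZIP42 were added to this list with the values in view. The exception was thus not on the planned list, and the medians include both genes.

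OsABF1 (LOC_Os01g64730) was the most abundant of them, at 48.3 FPKM in the leaf blade (46.6 to 49.9), 77.6 in the node (74.4 to 80.8) and 54.7 in the stem (50.9 to 58.6). Node was highest, but by log2 differences of only 0.67 and 0.50. OsbZIP72 (LOC_Os09g28310) had 25.2 FPKM in the leaf blade, 58.1 in the node and 46.0 in the stem. OsbZIP23 (LOC_Os02g52780), known for drought tolerance, had 27.6 FPKM in the leaf blade, 32.7 in the node and 16.9 in the stem.

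TRAB1 (LOC_Os08g36790), which pairs with the seed regulator VP1, was the most even of the group. It had 19.2 FPKM in the leaf blade (18.1 to 20.3), 17.4 in the node (16.2 to 18.7) and 18.4 in the stem (17.3 to 19.4), and the 3 intervals overlapped. OsbZIP42 (LOC_Os05g41070) had 18, 22.7 and 31.9 FPKM in the leaf blade, node and stem, and OsbZIP46 (LOC_Os06g10880) had 3.29, 6.15 and 8.06 in the same order. Both were lowest in the leaf blade and highest in the stem by FPKM, but by fragments OsbZIP46 was highest in the node, with 121.8 in the leaf blade, 579 in the node and 373 in the stem. OsABI5 (LOC_Os01g64000), known from seeds and pollen, stayed under 1 FPKM, at 0.541 in the node, 0.0279 in the leaf blade and 0.0132 in the stem.

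The kinases upstream and the genes downstream were looked up by identifier. Of 10 SAPK genes, 9 were compared, and 1 was higher by 4-fold or more in the node and in the stem than in the leaf blade. This was SAPK4 (LOC_Os01g64970), at 14.9 FPKM in the leaf blade, 69.5 in the node and 123 in the stem, though by fragments its log2 differences were 0.79 and 1.64. SAPK2 (LOC_Os07g42940) had 88.4 FPKM in the leaf blade, 169 in the node and 63.9 in the stem. Of 5 genes known to respond to abscisic acid, 3 were compared, and 1 dehydrin gene was past 4-fold. RAB16A (LOC_Os11g26790) had 3.70 FPKM in the node against 0.0410 in the leaf blade and 0.0195 in the stem, from 171 fragments against 2 and 1. LEA3, a late embryogenesis abundant protein gene, was not compared, at 0.0529, 0.0317 and 0.0283 FPKM in the leaf blade, node and stem.

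The members grouped as storage protein regulators, with the endosperm activator RISBZ1 among them, held some of the most abundant members of the vegetative tissues sampled here. All 5 were compared, and 2 were higher in the node than leaf blade by 4-fold or more, with a median log2 difference of 1.55. RISBZ4, among these 2, was added to the list with the values in view, so the count and the median are not independent of them. RISBZ4 (LOC_Os02g07840, chromosome 2, 4109770 to 4112884) had 17.8 FPKM in the leaf blade (16.3 to 19.2), 127 in the node (123 to 131) and 47.1 in the stem (44.9 to 49.3). The 3 intervals were far apart, with node highest by log2 differences of 2.77 over leaf blade and 1.41 over stem. It was the most abundant bZIP gene of the node library, and RISBZ1, given above, was the other gene past 4-fold.

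The other relatives were within 4-fold. RISBZ3 (LOC_Os02g16680) had 19.5 FPKM in the leaf blade, 59.0 in the node and 74.9 in the stem, close to 4-fold for stem versus leaf blade at 1.89 on the log2 scale. REB (LOC_Os03g58250) had 12.3, 16.8 and 20.9 FPKM in the leaf blade, node and stem. OsbZIP52 (LOC_Os06g45140) had 9.78, 18 and 9.07 FPKM in the same order, with only node apart from the others. RISBZ1 was thus the only gene of the 5 near 0 in the stem, while RISBZ3 and REB were highest there.

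The 3 factors of the unfolded protein response were lowest in the stem by FPKM, and OsbZIP39 was lowest in the node by fragments, with a node versus stem log2 difference of 1.59 by FPKM and -0.54 by fragments. OsbZIP50 (LOC_Os06g41770), whose mRNA is spliced by the sensor IRE1, had 47.2 FPKM in the leaf blade (45.4 to 48.9), 36.8 in the node (35.3 to 38.4) and 22.4 in the stem (21.2 to 23.6). The level stepped down from leaf blade to node to stem, and the log2 difference of stem versus leaf blade was -1.04. The membrane-bound factors OsbZIP60 (LOC_Os07g44950) and OsbZIP39 (LOC_Os05g34050) had 13.0 and 26.0 FPKM in the leaf blade, 10.7 and 32.1 in the node, and 6.44 and 10.04 in the stem. None of the 3 was past 4-fold in any comparison.

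Of 7 genes looked up for the sensor and the chaperones of the same compartment, 5 were compared and 1 was lower by 4-fold or more in the stem than leaf blade. They had a median log2 difference of -0.76 for node versus leaf blade and -1.20 for stem versus leaf blade. BIP1 (LOC_Os02g02410), the main chaperone, had 327 FPKM in the leaf blade, 85.2 in the node and 58.1 in the stem, and was past 4-fold for stem versus leaf blade, at -2.47. PDIL1-1 (LOC_Os11g09280), a protein disulfide isomerase, had 335, 197 and 146 FPKM in the same order. IRE1 itself (LOC_Os07g28820) was even, at 17.5, 15.6 and 14.2 FPKM.

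OsFD1 (LOC_Os09g36910, chromosome 9, 21291988 to 21293452) is the partner through which the florigen Hd3a acts on flowering genes. It had 0.494 FPKM in the leaf blade (0.304 to 0.684), 4.41 in the node (3.83 to 5.0) and 10.8 in the stem (9.19 to 12.4). Leaf blade was lowest, with log2 differences of 1.86 for node and 2.98 for stem. The order of node and stem depended on the quantity, since node had more fragments, 229 against 179 in the stem and 27 in the leaf blade. By fragments the stem versus leaf blade difference was 1.62 on the log2 scale, under 4-fold. OsFD4 (LOC_Os08g43600) stayed under 1 FPKM, at 0.0674 in the leaf blade, 0.654 in the node and 0 in the stem. OsFD2 had a row of its own in the leaf blade alone, at 1.09 FPKM.

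The florigen gene Hd3a (LOC_Os06g06320) had 29.8 FPKM in the leaf blade, 21.2 in the node and 1.17 in the stem. It was highest in the leaf blade, the organ in which florigen is made. The target genes MADS15 (LOC_Os07g01820) and MADS14 (LOC_Os03g54160) were lowest there, at 0.542 and 89.8 FPKM, against 121 and 713 in the node and 127 and 743 in the stem. Of the 3 bridging 14-3-3 genes GF14b, GF14c and GF14e, all lay between 89.7 and 774 FPKM and none was past 4-fold. Over the 6 genes given for this pathway, 2 were higher by 4-fold or more and 0 lower for node versus leaf blade, 2 higher and 1 lower for stem versus leaf blade, and 1 higher for node versus stem. By fragments MADS14 was under 4-fold in both, at log2 differences over the leaf blade of 1.93 for the node and 1.81 for the stem, so that 1 of the 2 higher genes kept its call.

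The members OsbZIP48 and OsbZIP18, relatives of the Arabidopsis light signalling factor HY5, were under 2 FPKM. OsbZIP48 (LOC_Os06g39960) had 1.62 FPKM in the leaf blade (1.28 to 1.96), 0.420 in the node (0.241 to 0.599) and 0.0172 in the stem, from 88.6, 22 and 1 fragments. It was highest in the leaf blade with no overlap of intervals, but its low level kept the log2 difference of stem versus leaf blade at -1.36. OsbZIP18 (LOC_Os02g10860) had 1.95, 1.58 and 1.32 FPKM, with overlapping intervals. COP1 (LOC_Os02g53140), the ligase that removes HY5 in the dark, had 27.3 FPKM in the leaf blade, 17.6 in the node and 6.92 in the stem, whereas its fragments numbered 482, 500 and 925.

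Members with other roles were mostly lowest in the leaf blade. OsbZIP73 (LOC_Os09g29820, chromosome 9, 18122580 to 18123465), known for cold tolerance, had 1.18 FPKM in the leaf blade (0.794 to 1.56), 35.5 in the node (33.4 to 37.7) and 12.4 in the stem (10.9 to 13.9). The intervals did not overlap, and the log2 difference of 4.07 for node versus leaf blade was the second largest among members. In stem versus leaf blade it was 2.63 in FPKM and 1.91 by fragments. RF2b (LOC_Os03g21800), known from binding a viral promoter in vascular tissue, had 1.08 FPKM in the leaf blade, 12.5 in the node and 6.62 in the stem, a log2 difference of 2.69 for node versus leaf blade. OsbZIP16 (LOC_Os02g09830), a drought factor, had 2.10, 7.22 and 12.8 FPKM in the leaf blade, node and stem, and was past 4-fold for stem versus leaf blade, at 2.15.

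LOC_Os01g58760 (chromosome 1, 33961789 to 33963991) was grouped by its identifier with Arabidopsis bZIP19 and bZIP23, which switch on zinc transporters when zinc is short. Whether the rice gene shares that role was not tested. It had 4.80 FPKM in the leaf blade (3.95 to 5.65), 31.0 in the node (29.2 to 32.9) and 8.79 in the stem (7.75 to 9.82). The node was highest with no overlap, at log2 differences of 2.46 over leaf blade and 1.71 over stem. A relative, LOC_Os05g41540, had 11.9 FPKM in the leaf blade and 18.2 in the stem, and no row of its own in the node.

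**Figure D4:**
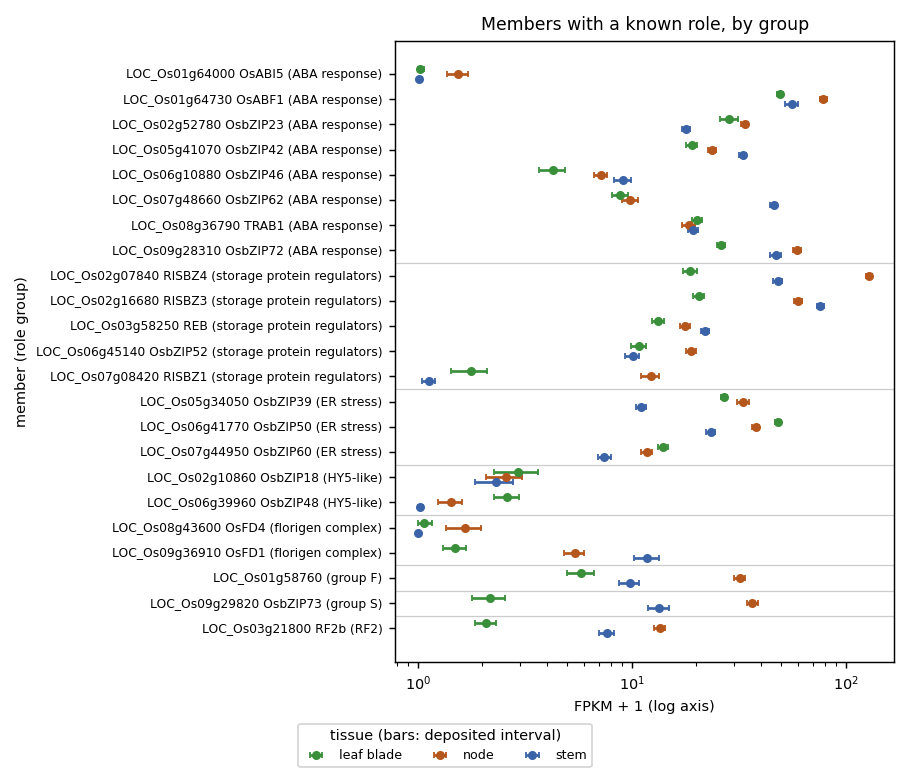
Levels of bZIP genes with a listed role, grouped by role (OsbZIP16 and LOC_Os11g06170 are not drawn), as FPKM + 1 on a log axis in the leaf blade (green), node (orange) and stem (blue), 1 library each, with bars for the deposited interval. Roles rest on identifiers alone. The points of TRAB1 lie together between 17.4 and 19.2 FPKM, and those of RISBZ1 and OsbZIP73 spread widely, with node at 11.3 and 35.5 FPKM.

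Of the members without a role given here, LOC_Os01g36220 (chromosome 1, 20033503 to 20035006) was the 1 member lower in the node than leaf blade by 4-fold or more. It had 18.3 FPKM in the leaf blade (17.3 to 19.4), 1.26 in the node (0.974 to 1.55) and 5.81 in the stem (5.22 to 6.40). Leaf blade was highest and node lowest, with a log2 difference of -3.10 between them, from 1175 and 77 fragments. In the opposite order, LOC_Os01g59760 had 3.61 FPKM in the leaf blade, 22.7 in the node and 31.3 in the stem, past 4-fold over leaf blade in both. LOC_Os08g38020 had 0.612 FPKM in the leaf blade, 9.08 in the node and 7.21 in the stem, with log2 differences of 2.64 and 2.35 over leaf blade. LOC_Os03g20650 was listed at 0 in the leaf blade and had 1.98 FPKM in the node and 4.88 in the stem, where its locus was longer than in the leaf blade and overlapped the gene LOC_Os03g20640.

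Other members were even by FPKM. The gene described as activator RSG, LOC_Os11g06170, had 66.5 FPKM in the leaf blade (63.3 to 69.7), 85.6 in the node (81.4 to 89.8) and 56.2 in the stem (53.2 to 59.1). RSG of tobacco activates a gene of gibberellin synthesis. It was the most abundant bZIP gene of the leaf blade library and within 2-fold between tissues. LOC_Os11g11100 had 32.2, 26.6 and 28.7 FPKM and LOC_Os02g58670 had 29.4, 18.2 and 27.3. In all, 14 of the 45 members compared were within 2-fold in every comparison (31.1%), among them TRAB1, REB, OsbZIP42, OsbZIP52 and OsbZIP60. This count too has no share over all genes beside it. In 4 of the 14, namely OsABF1, OsbZIP23, LOC_Os11g11100 and LOC_Os01g31580, the fragments behind 1 FPKM differed by over 1.5-fold in a comparison, which leaves 10. For stem versus leaf blade, the library-scaled fragments of LOC_Os11g11100 stood at 0.411-fold. Those of OsbZIP42 stood at 2.44-fold.

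Further members, though not all that remain, are given here. LOC_Os07g48180 was listed at 0 in the leaf blade and had 2.33 FPKM in the node (1.96 to 2.69) and 0.122 in the stem. LOC_Os02g14910 was likewise listed at 0 in the leaf blade, with 1.99 FPKM in the node (1.35 to 2.64) and 0.0404 in the stem. LOC_Os06g50480 had 0.0500 FPKM in the leaf blade, 2.12 in the node (1.14 to 3.11) and 0 in the stem. These 3 genes were seen almost only in the node, but at their low level the log2 differences over leaf blade were 1.73, 1.58 and 1.57, under the threshold. LOC_Os12g09250 was highest in the leaf blade, at 3.08 FPKM, against 0.582 in the node and 0.132 in the stem, from 163, 60 and 15 fragments. LOC_Os08g43090 had 8.37 FPKM in the leaf blade, 10.9 in the node and 3.30 in the stem. LOC_Os12g06520 and LOC_Os12g40920 were steady, at 26.6 and 27.1 FPKM in the leaf blade, 34.9 and 26.0 in the node, and 27.5 and 17.9 in the stem. Of the members under 1 FPKM everywhere, LOC_Os01g11350 came closest, at 0.975 FPKM in the node from 16.0 fragments, and LOC_Os03g47200 rested on 2 fragments in the stem alone.

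FPKM and the fragments implied by its interval told different stories for some members. FPKM is fragments divided by a transcript length, so the fragments behind 1 FPKM of a gene should change little between libraries of similar size. They differed by over 1.5-fold in 8 of 40 members above 0 in both node and leaf blade (20.0%, against 24.4% of all such genes). The shares were 9 of 38 (23.7%, against 22.9%) for stem versus leaf blade and 9 of 42 (21.4%, against 21.7%) for node versus stem. Members thus did so about as often as other genes, and none of those past 4-fold in FPKM had the opposite sign by fragments.

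For several members, however, the order of tissues turned on this choice, among them factors of abscisic acid response. OsABF1, highest in the node by FPKM, had 3505 fragments in the leaf blade, 2350 in the node and 796 in the stem, and by fragments its stem versus leaf blade difference was -2.19 on the log2 scale, past 4-fold, against 0.18 by FPKM. OsbZIP23 had 425 fragments in the leaf blade, 2756 in the node and 1578 in the stem, a log2 difference of 2.59 for node versus leaf blade against 0.24 by FPKM. OsbZIP72 had 2084, 2097 and 1212 fragments, so its node and leaf blade were even by fragments, at 0.01, and 1.17 apart by FPKM. OsbZIP39 had 3166 fragments in the leaf blade, 815 in the node and 1296 in the stem, so node versus leaf blade was -1.91 by fragments and 0.29 by FPKM. LOC_Os01g31580 had 14.5 FPKM in the leaf blade, 8.56 in the node and 9.57 in the stem, whereas its fragments numbered 800.3, 1112 and 1370. The directions of these 5 genes, and of OsbZIP46, OsFD1 and LOC_Os11g11100 between node and stem, are therefore uncertain. For LOC_Os11g11100 this difference was -0.10 by FPKM and 0.94 by fragments. Smaller changes of sign fell on OsbZIP18 and LOC_Os11g06170 for node versus leaf blade, and on OsbZIP52 for stem versus leaf blade. Whether the authors' transcript models or intervals wider than counting error set FPKM and fragments apart was not tested. OsbZIP50, OsbZIP60, OsbZIP62, RISBZ4 and LOC_Os08g26880 gave like differences by both quantities.

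**Figure D5:**
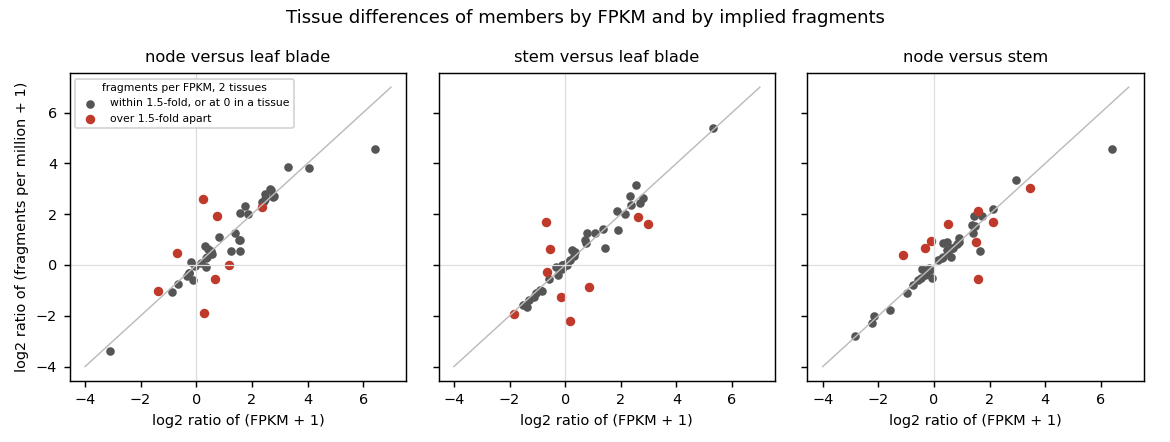
Log2 difference of each of the 45 bZIP genes by FPKM + 1 (x axis) and by library-scaled fragments + 1 (y axis) in the 3 comparisons of single libraries, with a line where both are equal. Red points are genes whose fragments per FPKM differed by over 1.5-fold between the tissues (8, 9 and 9 genes), and several of them lie in quadrants where the signs differ.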

How the data were processed

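Total RNA of leaf blade, node and stem was sequenced as paired-end libraries, 1 per tissue, per the labels. The authors deposited an FPKM value per gene with lower and upper interval bounds, per the file headers. The submitters' processing notes list TopHat. How FPKM was estimated, on which build and with which annotation, is not given in the sources used here. Rows with no identifier or with several were left out.

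Fragments (n) were computed by taking the distance from the FPKM to its upper bound as 2 × FPKM / √n. Whole n (within 0.02) came out for only 49.2%, 49.2% and 49.7% of values under 200 fragments. No count test was therefore run. Log2 ratios used a pseudocount of 1 FPKM, over genes that reached 1 FPKM in a tissue or more, computed with pandas 2.3.3 and numpy 2.4.6. The code was run on simulated data whose intervals were built with the same formula. That run checks the code and cannot show that the formula holds for the deposited intervals. Starts are printed with 1 added, since they were taken to count from 0. Intervals were taken to cover counting error only, which was not checked further.

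Members and lists were chosen with earlier results of these data known. Named members were the 6 most abundant per tissue, the 6 largest 4-fold differences per comparison and direction, those predominating in 1 tissue and those with a listed role, 7 of the roles having been added with the values in view. The added roles were those of RISBZ4, OsbZIP42, OsbZIP62, OsbZIP73, OsFD4, LOC_Os05g41540 and LOC_Os11g06170. LOC_Os08g38020 and other members outside this rule were named after their values were seen. Symbols and roles rest on identifiers alone. The identifiers matched 0 entries of the RefSeq gene table. LOC_Os06g50310 was left out because its description goes against the planned role. Alternatives tried were the pseudocount, the filter, the scaling, the fold, fragments in place of FPKM, and leaving out doubtful members. A further gene of the florigen list is not reported here.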

Additional observations from a re-analysis of the deposited data

Results flagged for a closer look

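Signal also lay in rows outside the comparisons, where member loci had been merged with neighbours. In node, a row joining LOC_Os05g41540, a relative of the Arabidopsis zinc factors, with 1 neighbouring gene stood at 111 FPKM (109 to 113). A row of 6 identifiers that holds OsFD2 (LOC_Os06g50600) and LOC_Os06g50830 stood at 39.5 FPKM in the node (38.6 to 40.3) and at 93.0 in the stem (90.8 to 95.2). These values cannot be divided among the genes, and no level of the 3 members in those tissues is drawn from them.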

How the results depend on the processing

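The counts of members past 4-fold kept within 1.5 times under both rescalings and with no filter on low values. The upper quartile rescaling moved the median of all genes for node versus stem from 0.16 to 0.06. A pseudocount of 0.1 FPKM gave 2 members lower for node versus leaf blade, 3 lower for stem versus leaf blade, 10 higher for node versus stem, 1 predominating in the leaf blade and 8 in the node, with medians of 0.92 for node versus leaf blade and 0.49 for stem versus leaf blade. A pseudocount of 5 FPKM gave 4 higher and 0 lower for node versus leaf blade, 2 higher for stem versus leaf blade, and 1 higher and 1 lower for node versus stem, with medians of 0.43 for node versus leaf blade and 0.31 for node versus stem. With 0.1 FPKM, 18 members were higher for node versus leaf blade and 11 for stem versus leaf blade. Both pseudocounts act on low values by construction. A 2-fold threshold gave 21 higher and 2 lower for node versus leaf blade, 14 and 6 for stem versus leaf blade, and 14 and 5 for node versus stem. Counts under these alternatives are given without the shares over all genes, so they are not set against other genes. A filter at 5 FPKM gave 3 higher for node versus stem, with a median of 0.33. Fragments in place of FPKM gave 16 higher for node versus leaf blade. For stem versus leaf blade they gave 8 higher and 1 lower, OsABF1. Leaving out members whose fragments per FPKM differed, chosen after seeing the data, gave 3 higher for node versus stem. Of 28 differences past 4-fold among the members named by rule, 20 fell short of 4-fold with a pseudocount of 5 FPKM and 3 by fragments, namely LOC_Os05g32760, OsbZIP73 and OsFD1, with no change of direction. No paired analysis was possible because each tissue had 1 library. Members with few fragments limit the detail at low levels, with 14 members under 10 fragments in the leaf blade, 4 in the node and 14 in the stem.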

Other observations

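Factors of the bZIP class whose descriptions lack the word were looked up by identifier or by the names HBP-1b and RF2a. LOC_Os01g06560, described as HBP-1b, had 0.149 FPKM in the leaf blade, 21.4 in the node and 0.144 in the stem, so the node stood alone, at log2 differences of 4.29 over both. LOC_Os04g41820, described as RF2a, had 0.236 FPKM in the leaf blade, 9.0 in the node and 1.01 in the stem, also highest in the node. The better known RF2a gene (LOC_Os09g34060), the partner of RF2b, had 17.6, 29.1 and 19.4 FPKM in the leaf blade, node and stem. Of the 5 genes of this list that were compared, 2 were higher by 4-fold or more for node versus leaf blade, 0 for stem versus leaf blade and 2 for node versus stem.

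Genes of the TGA class, known from defence and development, differed from each other. LOC_Os01g59350 was listed at 0 in the leaf blade and had 14.9 FPKM in the node and 37.3 in the stem, from 1419 and 3919 fragments. LOC_Os07g48820 had 52.1 FPKM in the leaf blade, 23.6 in the node and 36.5 in the stem, and OsTGAP1 (LOC_Os04g54474), a regulator of phytoalexin synthesis, had 24.7, 32.6 and 56.6. OsbZIP47 (LOC_Os06g15480) was listed at 0 in the leaf blade, with 2.40 FPKM in the node and 0.261 in the stem. OsbZIP01 (LOC_Os01g07880), described as HY5, had 9.03 FPKM in the leaf blade, 9.44 in the node and 3.49 in the stem.

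The cold-induced gene LIP19 (LOC_Os05g03860) and the partner of OsbZIP73 in cold tolerance, OsbZIP71 (LOC_Os09g13570), were each merged with 1 neighbouring identifier in all 3 libraries. The row with LIP19 had 382 FPKM in the leaf blade, 466 in the node and 524 in the stem. The row with OsbZIP71 had 260 FPKM in the leaf blade (251 to 268), 116 in the node (114 to 118) and 592 in the stem (578 to 607), from 3656, 9001 and 6977 fragments, so the order of node differed between the quantities.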
